A study of Mus musculus with 12 samples.

Results

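The 45 genes described here encode the machinery that copies DNA and the regulators that start S phase: 11 genes of origin licensing, 6 of helicase activation, 6 of the sliding clamp and its loader, 6 DNA polymerase and primase genes, 4 that bind single strands or join Okazaki fragments, 4 of deoxynucleotide supply, 5 regulators of the G1/S transition and 3 of replication-coupled chromatin. They were chosen by name from known functions, with earlier results of these data known, and all 45 were found among the 35385 gene symbols listed for each library. Of these members 44 passed the filter on low values, which required at least 1 TPM, an abundance scaled by transcript length and library total, in at least 3 libraries and kept 12009 genes. The remaining member, Prim2, which encodes the large primase subunit, was listed at no more than 0.269 TPM in any library and was not tested.

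The libraries were made from mouse oligodendrocyte progenitor cells (OPCs), the dividing precursors of myelin-forming cells, which had been derived from mouse pluripotent stem cells. After 1 h of attachment in a medium permissive for differentiation, the cells received an exposure of 4 h. The 4 groups of 3 libraries received cetylpyridinium chloride (CPC), C12-C14-Alkyl(ethylbenzyl)dimethylammonium chloride (AEBDAC), methyltrioctylammonium chloride (MTOAC), or dimethyl sulfoxide (DMSO) as the vehicle. All 3 compounds are quaternary ammonium salts, and each was given at an IC75 of its own, the level giving 75% inhibition. The concentrations in molar units are not given in the labels, so the doses of the compounds differed by an unknown amount. CPC has a pyridinium ring, AEBDAC an ethylbenzyl ring, and MTOAC octyl chains and no ring. The labels do not say whether separate cultures gave the libraries of a group. The p-values therefore reflect the spread of the libraries at hand, which may be technical.

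Before S phase, the origin recognition complex, CDC6 and CDT1 load the ring-shaped MCM2-7 helicase onto DNA, a step called licensing. Cyclin E with CDK2 and E2F transcription factors then drive entry into S phase, CDC45 and the GINS complex activate the helicase, and polymerases copy both strands, aided by the PCNA clamp. Many of these genes are transcribed in late G1 under E2F control, and OPCs keep dividing until they differentiate.

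The libraries as a whole had the following features. Summed TPM lay between 772637 and 797758 in the 12 libraries, and the depth behind them is unknown beyond a stated minimum of 20 M reads. Correlations across genes between libraries of a group lay between 0.915 and 0.964. Vehicle library 1 stood apart from the rest, with 11.2% of its TPM in mitochondrially encoded genes, against 18.8 to 22.9% in the other 11 libraries. It was the highest of the vehicle libraries for 31 of the 45 members (68.9%), and for 59.1% of all tested genes. All 10 OPC markers passed the filter, and Olig1, a transcription factor of the lineage, averaged 1194 ± 154 TPM in vehicle libraries (SD, n = 3). No microglial marker exceeded 1.67 TPM. The summed pluripotency markers were 11.6 TPM in vehicle library 1 and 13.8 TPM in MTOAC library 3, and 4.18 to 6.33 TPM in the remaining libraries. Among these markers Pou5f1 was at 0 in 10 libraries and reached 9.64 TPM. Of 6 astrocyte markers 5 passed the filter. Their sum was 25.3 to 61.5 TPM with CPC, 29.2 to 61.2 TPM with AEBDAC and 23.9 to 59.8 TPM with MTOAC, against 25.4 to 81.0 TPM in vehicle libraries, highest in library 1 and lowest in library 2 of every group. The gap junction gene Gja1 reached 39.0 TPM and S100b, which codes for a calcium-binding protein, 34.4 TPM, while Gfap, the astrocyte filament, lay between 0.294 and 1.41 TPM. The summed OPC markers were lower in every compound library, at 1722 to 1856 TPM with CPC, 1630 to 1864 TPM with AEBDAC and 1420 to 1502 TPM with MTOAC, against 2132 to 2506 TPM in vehicle libraries. Olig1 carried most of this, with means of 782, 682 and 531 TPM in CPC, AEBDAC and MTOAC libraries, whereas Lhfpl3 averaged 112, 116 and 125 TPM in the same order, against 97.6 TPM in vehicle libraries, and Cspg4 averaged 35.6 and 37.2 TPM with CPC and AEBDAC, against 31.7 TPM. The summed neuronal markers, of which all 6 passed the filter and Map2 gave most of the TPM, were 326 to 392 TPM with CPC, 309 to 348 TPM with AEBDAC and 259 to 343 TPM with MTOAC, against 425 to 473 TPM in vehicle libraries. The neuronal vesicle gene Snap25 was at or below 2.14 TPM everywhere. The part of these shifts in the results given here was not tested. In bulk libraries, fewer cells of one type and less RNA per cell cannot be told apart.

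In vehicle libraries the members spanned 0.102 to 306 TPM, with a median of 19.0 TPM, against 12.4 TPM for the median tested gene. Pcna, the sliding clamp that tethers polymerases, was the most abundant at 306 ± 22.1 TPM (SD, n = 3, as for all vehicle means here). Rrm1, the large subunit of ribonucleotide reductase, followed at 134 ± 31.2 TPM and Rpa1, which coats single-stranded DNA, at 117 ± 32.1 TPM. These 2 neighbours did not differ beyond their spread. The next members were Rfc2 at 70.5 ± 21.5 TPM, Mcm2 at 60.2 ± 7.37 TPM, Mcm5 at 59.0 ± 2.78 TPM, Mcm4 at 58.0 ± 16.3 TPM and Tk1 at 57.9 ± 7.54 TPM, and their ranges overlapped. In all, 29 members were at 10 TPM or more and 11 were below 5 TPM. The coefficient of variation between vehicle libraries had a median of 17.1% over the members at 10 TPM or more and 32.3% over the lower ones, so the low members were measured less precisely.

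Partners of the same complex were listed at very unequal levels. Primase is a heterodimer, yet Prim1 averaged 40.2 TPM and Prim2 0.102 TPM in vehicle libraries, a ratio of 396. Rpa1 was at 117 TPM and Rpa2, its partner in the RPA trimer, at 1.91 TPM, a ratio of 61.0. Within the MCM2-7 ring the extremes were Mcm2 at 60.2 TPM and Mcm6 at 7.19 TPM, within GINS they were Gins2 at 40.8 TPM and Gins3 at 0.767 TPM, and within the clamp loader they were Rfc2 at 70.5 TPM and Rfc4 at 4.96 TPM. Several of the low partners also varied widely between libraries of a group: Mcm6 had 1.04, 0.709 and 14.5 TPM in MTOAC libraries 1, 2 and 3. The cause of the unequal levels was not tested, and a low listed value is not taken as low expression here.

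**Figure D1:**
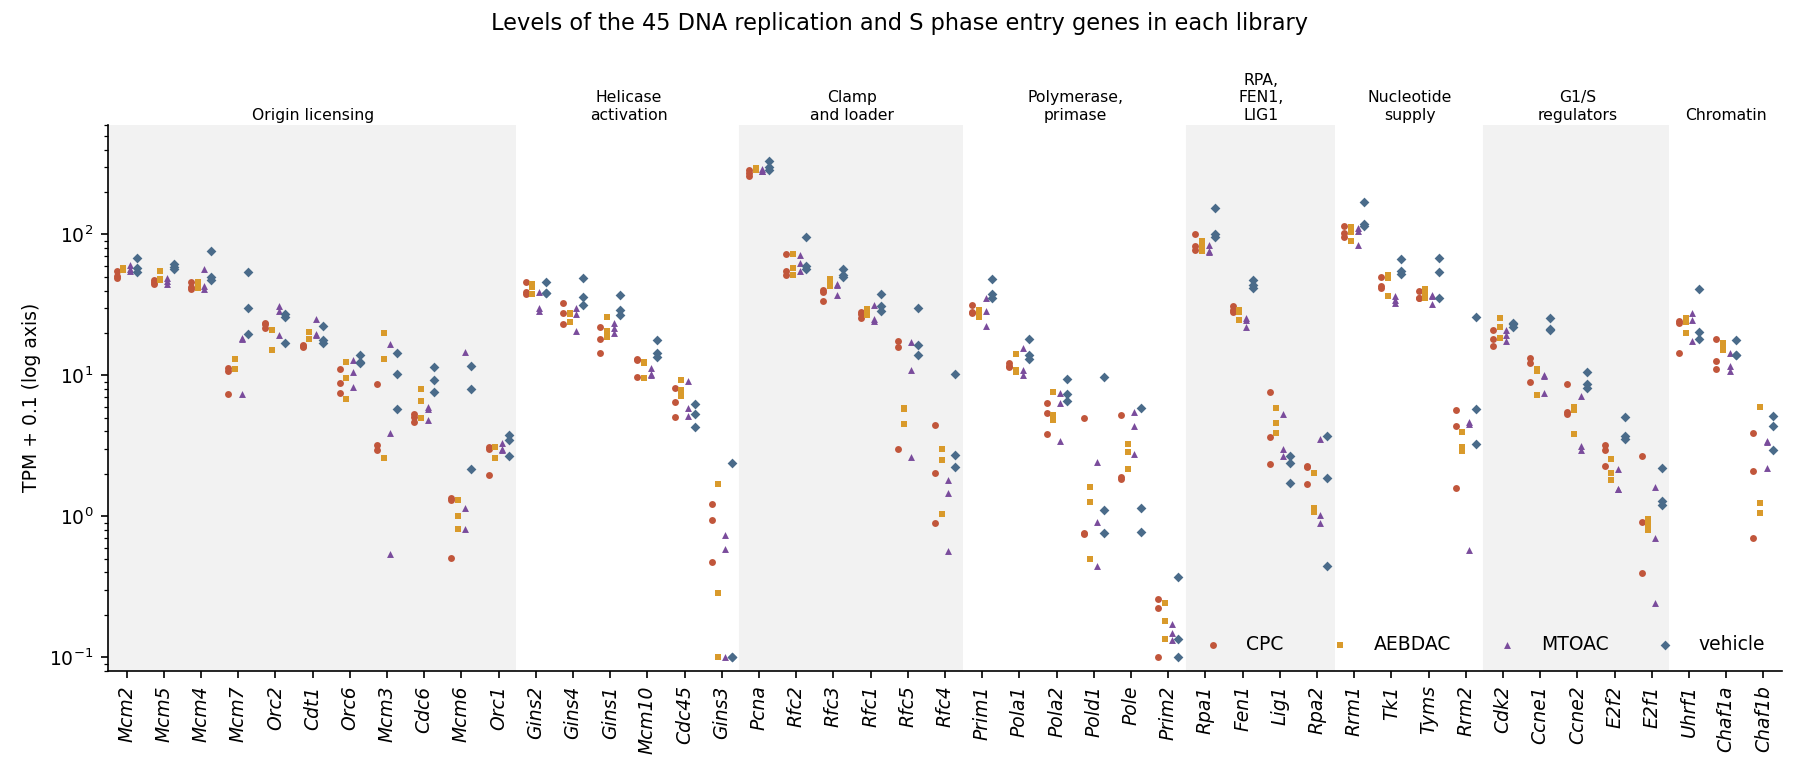
TPM of each of the 45 members in each of the 12 libraries, on a log axis after adding 0.1 so that values of 0 can be drawn, with members grouped by role and ordered within a role by their vehicle mean. Pcna lies highest and Prim2 lowest, and the low members scatter more between libraries of a group.

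The members were lower as a body in all 3 compound groups, and few of them passed the test one at a time. Summed over the 45 members, TPM were 1186, 1144 and 1177 in CPC libraries 1, 2 and 3, 1238, 1131 and 1267 in AEBDAC libraries and 1173, 1102 and 1253 in MTOAC libraries, against 1792, 1369 and 1370 in vehicle libraries. Each compound library was below each vehicle library, and vehicle library 1 was far above the other vehicle libraries. After the mitochondrially encoded genes were removed and each library was scaled to a total of 1000000, the sums were 1930, 1809 and 1888 with CPC, 1937, 1788 and 2002 with AEBDAC and 1892, 1741 and 1978 with MTOAC, against 2612, 2214 and 2204 in vehicle libraries. The groups again did not overlap, although vehicle library 1 remained the highest.

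Fold changes are given as log2 differences of TPM + 1, which understate the change of low genes, and a gene was called at a Benjamini-Hochberg adjusted p under 0.05 in limma. Over the 44 tested members the median log2 fold change was -0.37 with CPC, -0.36 with AEBDAC and -0.38 with MTOAC. The median of all tested genes also lay below 0, at -0.17, -0.16 and -0.22 in the same order. The members were therefore lower by 0.20, 0.20 and 0.16 on the log2 scale relative to the median gene, and after quantile normalization, which sets the median gene near 0, their medians were -0.20, -0.21 and -0.16. Without vehicle library 1 the member medians were -0.25, -0.20 and -0.32, and those of all genes -0.09, -0.07 and -0.14. Members with a negative fold change numbered 38, 38 and 39 of 44, or 86.4%, 86.4% and 88.6%, against 71%, 66.9% and 71.7% of all tested genes. The 3 comparisons share the vehicle libraries and are not independent of each other.

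With CPC, 0 members were called, against 0.0333% of all tested genes called lower and 0.0333% called higher. At an unadjusted p under 0.05, 13 members (29.5%) were lower, against 11.8% of all tested genes, and 0 were higher, against 1.81%. Members whose 3 CPC libraries all lay below the 3 vehicle libraries numbered 21 (47.7%), against 18% of all tested genes. Same-numbered CPC and vehicle libraries deviated together from their group means, and limma with replicate number as a blocking factor called 4 members lower (9.09%), against 1.25% of all tested genes. These were Ccne1 (-0.93 ± 0.13, SE, adjusted p = 0.0253), Fen1 (-0.57 ± 0.11, adjusted p = 0.0453), Rfc3 (-0.48 ± 0.09, adjusted p = 0.0448) and Gins1 (-0.75 ± 0.14, adjusted p = 0.0451).

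With AEBDAC, 2 members (4.55%) were called lower, Fen1 and Ccne1, against 0.883% of all tested genes, and 0 were called higher, against 0.391%. In a fit of the AEBDAC and vehicle libraries alone 0 members were called. The share of all genes called in that fit is not given here, so this 0 is not a result about the members. At an unadjusted p under 0.05, 16 members (36.4%) were lower, against 15.2% of all tested genes. In the other direction Lig1 and Cdc45 were higher at that level, or 2 members against 3.95% of genes. Groups did not overlap for 18 members that were lower (40.9%), against 19.2% of all tested genes.

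With MTOAC, 4 members (9.09%) were called lower, namely Fen1, Ccne1, Tk1 and E2f2, against 5.75% of all tested genes, and 0 were called higher, against 0.791%. The called share of members thus lay near that of all genes. In a fit of the MTOAC and vehicle libraries alone 0 members were called. The share of all genes called in that smaller fit is not given here either, so the 0 does not single out the members. At an unadjusted p under 0.05, 18 members (40.9%) were lower, against 21% of all tested genes, and 0 were higher, against 3.4%. Groups did not overlap for 16 members that were lower (36.4%), against 22.4% of all tested genes.

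When the mean of the 3 compound groups was set against vehicle, 8 members (18.2%) were called lower, against 6.55% of all tested genes, and 0 were called higher, against 1.11%. They were Fen1, Ccne1, Mcm7, Tk1, Cdc6, E2f2, Gins1 and Mcm5. Only Fen1 and Ccne1 were called in this comparison whichever library was left out. Without vehicle library 1 or without vehicle library 2 they were the 2 members called.

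**Figure D2:**
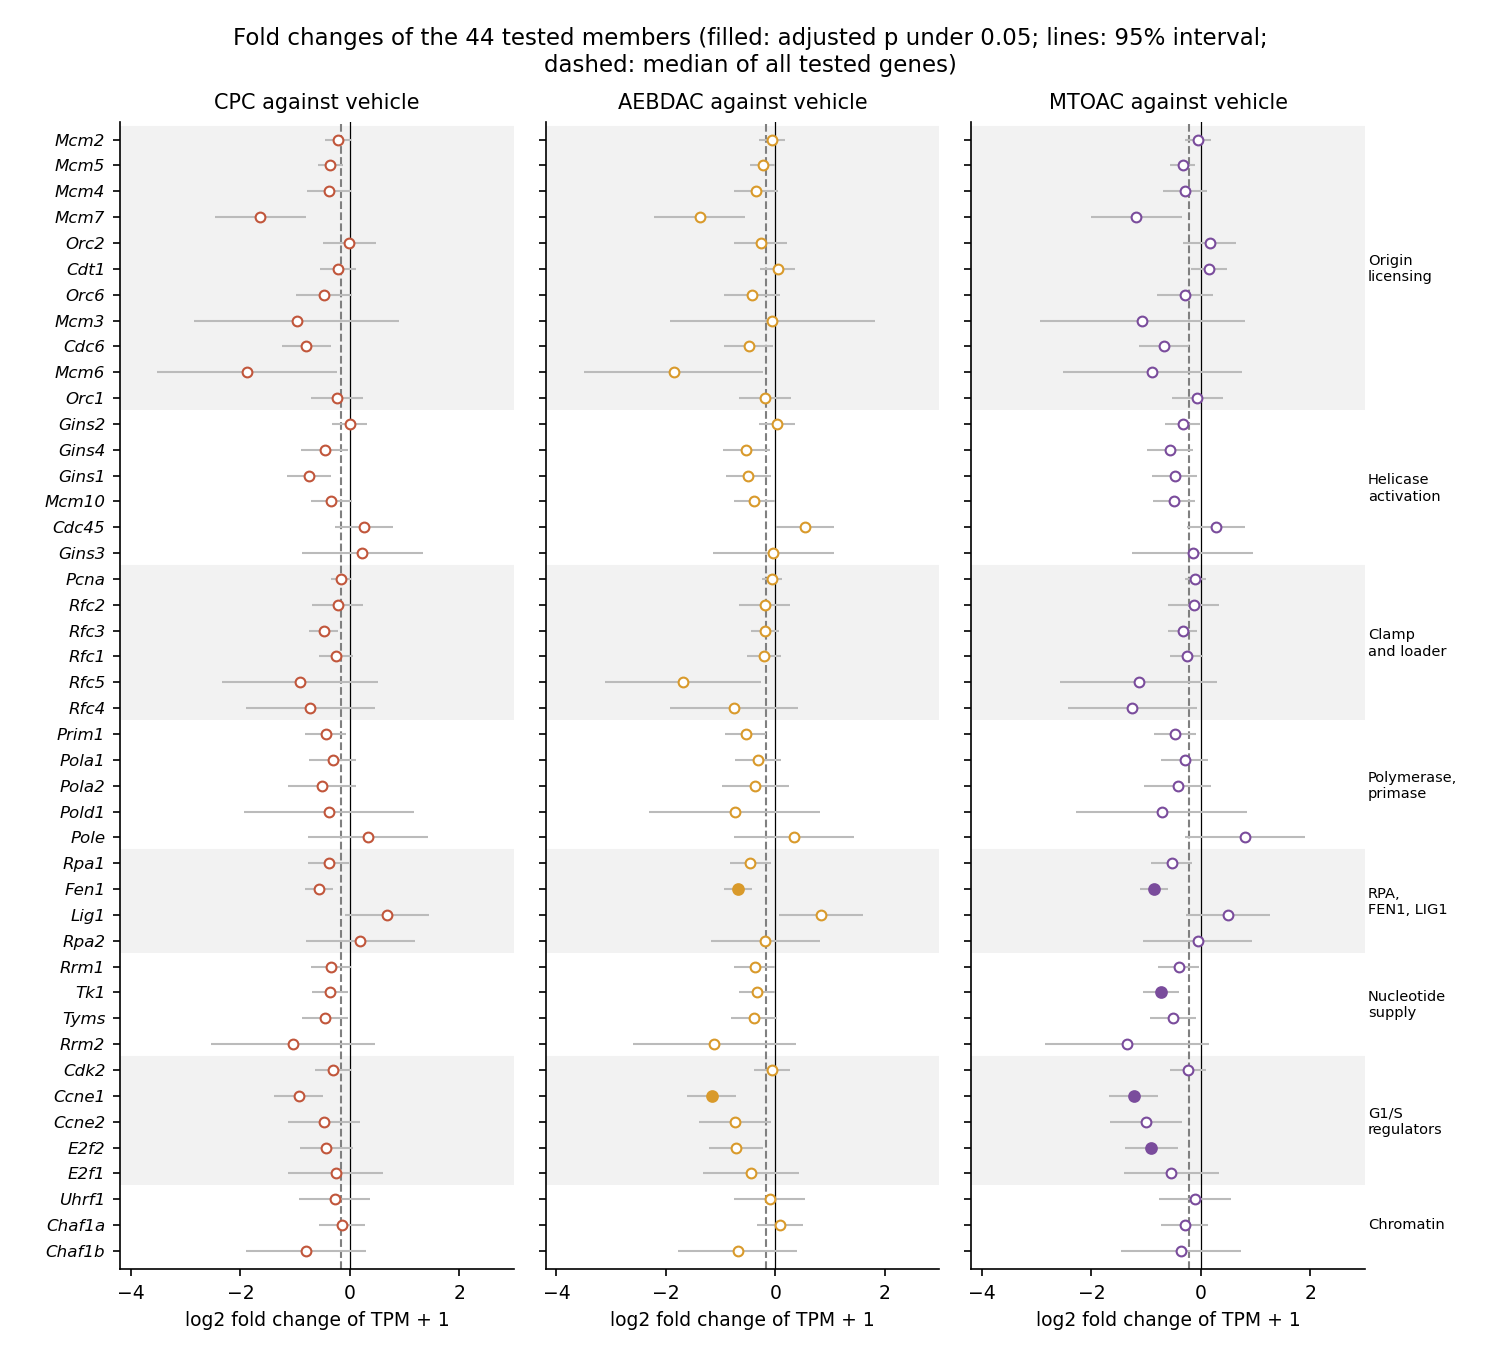
Log2 fold changes of the 44 tested members for each compound against vehicle, with 95% intervals, grouped by role. Filled points passed an adjusted p under 0.05 in the fit without the replicate block, and the dashed line is the median of all tested genes. Most members lie left of 0, with Fen1 and Ccne1 filled for AEBDAC and MTOAC.

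The 5 regulators of S phase entry had the lowest role median with each compound, at log2 fold changes of -0.43 with CPC, -0.72 with AEBDAC and -0.90 with MTOAC. With CPC the next role, nucleotide supply, was close at -0.41. Their summed level was 39.997 ± 2.63 TPM with CPC, 39.4 ± 4.49 TPM with AEBDAC and 35.1 ± 1.90 TPM with MTOAC, against 59.7 ± 1.05 TPM in vehicle libraries (SD, n = 3 each). Vehicle library 1 did not stand apart in this sum, with 60.9 TPM beside 59.2 and 58.9 TPM in vehicle libraries 2 and 3. Ccne1 (chromosome 7, 38097984 to 38107534, minus strand, GRCm38) encodes cyclin E1, which activates CDK2 at the end of G1. Ccne1 had 13.1, 8.86 and 12.2 TPM in CPC libraries 1, 2 and 3, 10.99, 7.17 and 10.6 TPM in AEBDAC libraries and 9.78, 7.37 and 10.0002 TPM in MTOAC libraries, against 25.4, 21.2 and 20.8 TPM in vehicle libraries. All 9 compound libraries were well below all 3 vehicle libraries, and library 2 was the lowest in each compound group. Its log2 fold change was -0.93 ± 0.21 with CPC (SE, adjusted p = 0.124), -1.16 ± 0.21 with AEBDAC (adjusted p = 0.0324) and -1.23 ± 0.21 with MTOAC (adjusted p = 0.0119). For CPC, whose libraries met the rule for pairing, limma with the replicate block gave an SE of 0.13 and an adjusted p of 0.0253. The AEBDAC call was lost when any vehicle library, AEBDAC library 2 or AEBDAC library 3 was left out, and its adjusted p lay between 0.00511 and 0.162 over 14 alternatives.

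Ccne2, which encodes the related cyclin E2, had 8.53, 5.38 and 5.18 TPM with CPC, 5.83, 3.76 and 5.59 TPM with AEBDAC and 6.99, 3.04 and 2.86 TPM with MTOAC, against 7.99, 8.59 and 10.5 TPM in vehicle libraries. AEBDAC and MTOAC libraries did not overlap the vehicle libraries, whereas CPC library 1 did. The log2 fold changes, -0.47 with CPC, -0.74 with AEBDAC and -0.996 with MTOAC, did not pass the test (adjusted p = 0.522, 0.213 and 0.0694). The 2 E-type cyclins summed to 17.7 ± 3.70 TPM with CPC, 14.7 ± 3.24 TPM with AEBDAC and 13.3 ± 3.21 TPM with MTOAC, against 31.5 ± 1.82 TPM in vehicle libraries. Their kinase partner Cdk2 was listed at 18.3 ± 2.45, 21.9 ± 3.52 and 19.3 ± 1.76 TPM in the 3 compound groups in that order, against 22.8 ± 0.842 TPM in vehicle libraries, and was not called.

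E2f2 (chromosome 4, 136172394 to 136196057, plus strand) encodes an activating E2F factor. It had 2.84, 3.08 and 2.18 TPM with CPC, 2.45, 1.71 and 1.93 TPM with AEBDAC and 1.46, 2.06 and 1.47 TPM with MTOAC, against 3.62, 4.98 and 3.42 TPM in vehicle libraries. Every compound library was below every vehicle library, at a low level throughout. E2f2 fell with MTOAC (-0.90 ± 0.22, adjusted p = 0.0391), and its log2 fold changes were -0.43 with CPC (adjusted p = 0.423) and -0.72 with AEBDAC (adjusted p = 0.120). The MTOAC call was lost without any 1 of the 6 libraries compared, with adjusted p between 0.0156 and 0.189 over 13 alternatives. E2f1, the founding member of the family, was close to the filter, with 2.56, 0.293 and 0.805 TPM with CPC, 0.856, 0.699 and 0.772 TPM with AEBDAC and 1.52, 0.598 and 0.144 TPM with MTOAC, against 2.09, 1.18 and 1.10 TPM in vehicle libraries. Only the AEBDAC libraries were all below the vehicle libraries, and no comparison of E2f1 passed the test (adjusted p = 0.821 with CPC, 0.574 with AEBDAC and 0.441 with MTOAC).

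**Figure D3:**
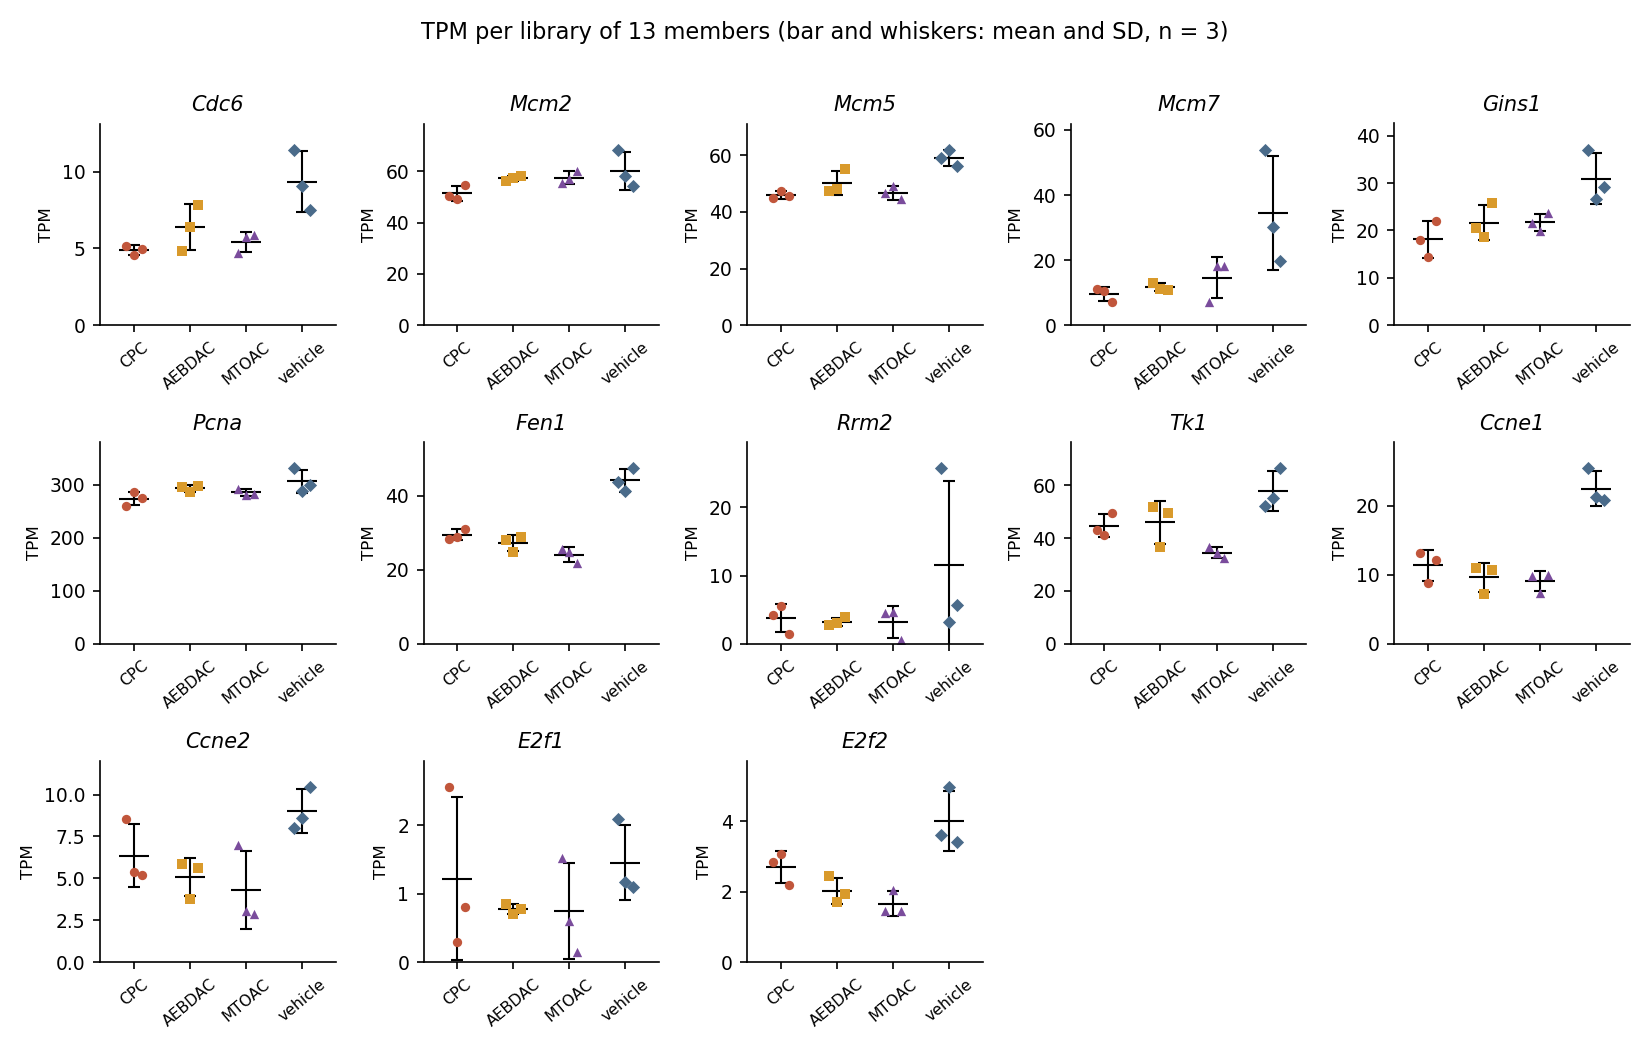
TPM in each library of 13 members, with the mean and SD of each group (n = 3). For Ccne1, Fen1, E2f2, Mcm5, Mcm7, Gins1 and Tk1 all compound libraries lie below all vehicle libraries. These were all called lower in the same libraries, so their separation adds no further support to the calls. At least 1 compound group overlaps vehicle for Mcm2, Pcna, E2f1, Rrm2, Cdc6 and Ccne2.

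Origin licensing had median log2 fold changes of -0.39 with CPC, -0.27 with AEBDAC and -0.29 with MTOAC over 11 tested members. With a single compound 0 of the 11 were called. Of all tested genes 0.0333%, 0.883% and 5.75% were called lower in the same order. In roles as small as this one and those below, a count of 0 lies near those shares. In the mean of the compounds 3 (27.3%) were called lower, Cdc6, Mcm5 and Mcm7, against 6.55% of all tested genes. Cdc6 (chromosome 11, 98907801 to 98923940, plus strand) encodes the ATPase that recruits the helicase to origins. It had 5.18, 4.54 and 4.98 TPM with CPC, 4.84, 6.42 and 7.84 TPM with AEBDAC and 4.69, 5.71 and 5.85 TPM with MTOAC, against 11.4, 9.09 and 7.48 TPM in vehicle libraries. The CPC and MTOAC libraries lay below all vehicle libraries, and AEBDAC library 3 overlapped vehicle library 3. Averaged over the compounds Cdc6 had a log2 fold change of -0.65 ± 0.17 (adjusted p = 0.0402), a call kept in 2 of the 12 fits that left out 1 library. Orc1, Orc2 and Orc6, subunits of the origin recognition complex, and Cdt1, the second loading factor, were not called. Orc2 had 22.7 ± 1.06 TPM with CPC, 18.9 ± 3.33 TPM with AEBDAC and 26.1 ± 6.13 TPM with MTOAC, against 23.3 ± 5.59 TPM in vehicle libraries, and Cdt1 had 16.1 ± 0.160, 19.5 ± 1.28 and 21.2 ± 3.40 TPM, against 19.0 ± 2.96 TPM.

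The 6 subunits of the MCM2-7 ring summed to 156 ± 6.71 TPM with CPC, 176 ± 13.9 TPM with AEBDAC and 178 ± 29.3 TPM with MTOAC, against 229 ± 48.6 TPM in vehicle libraries. Mcm5 (chromosome 8, 75109569 to 75128439, plus strand) had 44.7, 47.4 and 45.7 TPM with CPC, 47.5, 47.9 and 55.2 TPM with AEBDAC and 46.5, 49.1 and 44.4 TPM with MTOAC, against 58.9, 61.9 and 56.3 TPM in vehicle libraries. The 9 compound libraries were all below the 3 vehicle libraries, AEBDAC library 3 only just. Averaged over the compounds Mcm5 had a log2 fold change of -0.31 ± 0.08 (adjusted p = 0.0473), and this call was lost in each of the 12 fits that left out 1 library.

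Mcm7 (chromosome 5, 138164583 to 138172422, minus strand) had 11.2, 10.7 and 7.27 TPM with CPC, 13.05, 10.98 and 10.9 TPM with AEBDAC and 7.28, 18.2 and 18.1 TPM with MTOAC, against 53.9, 30.2 and 19.7 TPM in vehicle libraries. The groups did not overlap, but the vehicle libraries themselves were widely spread, with library 1 far above library 3. Averaged over the compounds Mcm7 had a log2 fold change of -1.40 ± 0.31 (adjusted p = 0.0243). The call was lost without vehicle library 1 (-1.03, adjusted p = 0.118) and without vehicle library 2 (-1.44, adjusted p = 0.0697). Mcm7 overlaps Ap4m1 and Cops6 on the opposite strand and the library preparation is not described as marking strand, so reads of these genes cannot be told apart where they overlap.

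Mcm2 gave no difference that passed the test. It had 50.6, 49.2 and 54.8 TPM with CPC, 56.1, 57.6 and 58.1 TPM with AEBDAC and 55.3, 57.1 and 60.2 TPM with MTOAC, against 68.4, 58.1 and 54.2 TPM in vehicle libraries. Each compound group overlapped the vehicle group. The log2 fold changes were -0.22 with CPC (95% interval -0.45 to 0.02), -0.07 with AEBDAC (-0.30 to 0.17) and -0.06 with MTOAC (-0.30 to 0.18), and the sign with AEBDAC and MTOAC turned positive after quantile normalization (0.06 and 0.11). Among the other subunits Mcm4 had 43.1 ± 2.75 TPM with CPC, 43.99 ± 2.44 TPM with AEBDAC and 46.9 ± 8.86 TPM with MTOAC, against 58.0 ± 16.3 TPM in vehicle libraries, and was not called. Mcm3 and Mcm6 varied over 10-fold between libraries of a group with MTOAC and were not called.

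For the members it holds, the RefSeq promoter table of the GRCm38.p6 build was searched over the 250 bases before each listed start, on both strands, for E2F sites (TTTCCCGC, TTTCGCGC, TTTGCCGC or TTTGGCGC). The sequences are shown because many replication genes are textbook E2F targets, and Mcm5, Ccne1, Fen1 and E2f2 are among the called members; Mcm6, which was not called, is shown for its matches. A match was present for 9 of the 37 members in the table (24.3%), against 517 of all 27025 promoters (1.91%). The 9 were Orc1, Cdc6, Mcm5, Mcm6, Mcm7, Gins3, Rfc3, Pola1 and Cdk2. Some windows hold annotated exon bases of the gene or a neighbour, so they are not all upstream sequence. These were 250 bases for Mcm7, 164 for Orc1, 106 for Gins3, 105 for Cdk2, 81 for Cdc6 and 34 for Rfc3. The Mcm5, Mcm6 and Pola1 windows held 0. The CCAAT box (CCAAT) was present for 23 of 37 members (62.2%), against 34.5% of all promoters, and the cell cycle homology region (TTTGAA or TTCGAA) for 6 of 37 (16.2%), against 17.4%. A match is a description and not a binding site. Mcm5 held a pair of overlapping matches on opposite strands and Mcm6 held 3 matches, an overlapping pair and 1 nearer the start. Ccne1, Fen1 and E2f2 held none in these windows, which says only that those letters are not there. The listed starts differ from the GENCODE gene starts for some genes. The Fen1 window ends at 10204394, short of the gene start at 10204169, and the E2f2 window at 136172273, short of 136172394. Those of Mcm5 and Mcm6 also end short of the gene start. The bases between were not searched. Each sequence runs 5′ to 3′ on the gene's strand, and capitals mark the E2F matches. The Ccne1 stretch is the 206-base part of its window that lies outside annotated exons.
Mcm5, chr8:75109259-75109508, plus strand: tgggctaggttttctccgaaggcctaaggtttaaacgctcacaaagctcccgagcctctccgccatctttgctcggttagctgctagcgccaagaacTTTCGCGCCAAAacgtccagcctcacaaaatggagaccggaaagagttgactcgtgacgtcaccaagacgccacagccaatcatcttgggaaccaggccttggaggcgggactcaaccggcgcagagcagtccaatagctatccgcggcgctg
Mcm6, chr1:128359706-128359955, minus strand: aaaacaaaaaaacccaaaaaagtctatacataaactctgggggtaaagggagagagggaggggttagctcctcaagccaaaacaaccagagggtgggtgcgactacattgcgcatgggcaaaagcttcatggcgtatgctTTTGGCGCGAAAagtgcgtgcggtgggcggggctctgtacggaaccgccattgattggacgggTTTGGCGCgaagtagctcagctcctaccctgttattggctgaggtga
Ccne1, chr7:38107535-38107740, minus strand: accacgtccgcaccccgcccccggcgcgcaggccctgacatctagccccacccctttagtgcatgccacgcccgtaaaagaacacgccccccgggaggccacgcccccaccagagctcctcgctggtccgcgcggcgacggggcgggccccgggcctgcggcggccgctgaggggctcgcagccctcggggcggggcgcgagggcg
Fen1, chr19:10204394-10204643, minus strand: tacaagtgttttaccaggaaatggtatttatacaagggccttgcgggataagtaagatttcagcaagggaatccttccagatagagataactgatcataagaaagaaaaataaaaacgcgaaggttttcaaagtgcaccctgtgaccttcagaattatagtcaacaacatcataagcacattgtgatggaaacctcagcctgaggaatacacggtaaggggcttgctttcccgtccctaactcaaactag
E2f2, chr4:136172024-136172273, plus strand: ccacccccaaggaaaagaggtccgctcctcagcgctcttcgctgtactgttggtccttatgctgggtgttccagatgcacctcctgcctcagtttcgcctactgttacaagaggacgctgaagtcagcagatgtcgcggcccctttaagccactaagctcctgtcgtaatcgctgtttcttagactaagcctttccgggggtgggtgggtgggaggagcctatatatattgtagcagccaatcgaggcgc

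Helicase activation genes had median log2 fold changes of -0.17 with CPC, -0.21 with AEBDAC and -0.41 with MTOAC. Gins1 (chromosome 2, 150905400 to 150931280, plus strand), a subunit of the GINS tetramer that joins the helicase to CDC45, had 18.1, 14.3 and 21.98 TPM with CPC, 20.5, 18.6 and 25.8 TPM with AEBDAC and 21.6, 20.0 and 23.6 TPM with MTOAC, against 37.0, 26.6 and 29.2 TPM in vehicle libraries. No compound library reached a vehicle library, although AEBDAC library 3 came close to vehicle library 2. Averaged over the compounds Gins1 had a log2 fold change of -0.57 ± 0.15 (adjusted p = 0.0438), a call kept in 2 of the 12 fits that left out 1 library. Gins4 had 27.8 ± 4.69, 26.2 ± 2.03 and 25.9 ± 4.89 TPM with CPC, AEBDAC and MTOAC, against 38.9 ± 8.94 TPM in vehicle libraries. Gins2 had 40.8 ± 4.18, 41.7 ± 3.44 and 32.4 ± 5.67 TPM in that order, against 40.8 ± 4.65 TPM in vehicle libraries. Neither was called, and Mcm10, Cdc45 and Gins3 were not called. Cdc45, which travels with the helicase, had positive log2 fold changes of 0.26, 0.55 and 0.27 with CPC, AEBDAC and MTOAC.

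The clamp and its loader had median log2 fold changes of -0.37 with CPC, -0.20 with AEBDAC and -0.30 with MTOAC. Without the replicate block 0 of 6 members were called. With the block Rfc3 was called lower with CPC, with MTOAC and in the mean of the compounds. Of these comparisons only CPC and vehicle met the rule for pairing. Pcna had 260.7, 285.6 and 275.1 TPM with CPC, 297, 286 and 297 TPM with AEBDAC and 292, 281 and 283 TPM with MTOAC, against 331, 288 and 299 TPM in vehicle libraries. Only the CPC libraries were all below the vehicle libraries, and the other groups overlapped them. The log2 fold changes of -0.16, -0.06 and -0.10 had 95% intervals of -0.35 to 0.03 with CPC, -0.25 to 0.13 with AEBDAC and -0.29 to 0.09 with MTOAC. Pcna has named pseudogene copies, so its level is less certain. Rfc3, a small subunit of the clamp loader, had 37.5 ± 3.24 TPM with CPC, 45.9 ± 2.69 TPM with AEBDAC and 41.7 ± 4.18 TPM with MTOAC, against 52.6 ± 3.81 TPM in vehicle libraries. Its log2 fold changes were -0.48, -0.19 and -0.33 in the same order. Rfc2, the most abundant loader subunit, had 59.4 ± 11.05, 60.5 ± 10.6 and 62.9 ± 8.13 TPM with CPC, AEBDAC and MTOAC, against 70.5 ± 21.5 TPM in vehicle libraries.

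The polymerase and primase genes had median log2 fold changes of -0.38 with CPC, -0.36 with AEBDAC and -0.43 with MTOAC, and 0 of 5 tested members were called. Prim1, the catalytic primase subunit, had 29.1 ± 2.23 TPM with CPC, 27.1 ± 1.501 TPM with AEBDAC and 28.9 ± 6.60 TPM with MTOAC, against 40.2 ± 6.89 TPM in vehicle libraries, with adjusted p = 0.303, 0.125 and 0.117. Pola1, the catalytic subunit of the polymerase that extends primers, had 11.7 ± 0.349, 11.8 ± 1.95 and 12.1 ± 3.03 TPM in that order, against 14.9 ± 2.63 TPM in vehicle libraries. Pole, the leading-strand polymerase, was the 1 member of this role with positive log2 fold changes, of 0.34, 0.34 and 0.80, at levels from 0.667 to 5.80 TPM. Pola2 and Pold1 were lower on average in each compound group and were not called.

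In the fit without the replicate block, Fen1 had the smallest p of any member against vehicle with each of the 3 compounds. It encodes the flap endonuclease that trims Okazaki fragments before ligation (chromosome 19, 10199132 to 10204169, minus strand). Fen1 had 28.3, 28.8 and 31.1 TPM with CPC, 28.0, 24.6 and 28.9 TPM with AEBDAC and 25.6, 24.8 and 21.9 TPM with MTOAC, against 43.6, 41.3 and 47.4 TPM in vehicle libraries. The groups were far apart, and vehicle library 1 lay between the other vehicle libraries. Its log2 fold change was -0.57 ± 0.12 with CPC (SE, adjusted p = 0.117), -0.68 ± 0.12 with AEBDAC (adjusted p = 0.0320) and -0.85 ± 0.12 with MTOAC (adjusted p = 0.00674). For CPC, limma with the replicate block gave an SE of 0.11 and an adjusted p of 0.0453. As with Ccne1, the AEBDAC call was lost without any vehicle library or AEBDAC library 2 or 3 (adjusted p between 0.0113 and 0.162 over 14 alternatives), while the MTOAC call was kept whichever library was left out. Fen1 overlaps Tmem258 on the opposite strand. Rpa1 had 87.4 ± 12.4 TPM with CPC, 82.9 ± 6.44 TPM with AEBDAC and 78.6 ± 4.91 TPM with MTOAC, against 117 ± 32.1 TPM in vehicle libraries, and was not called (adjusted p = 0.357, 0.186 and 0.0853). Lig1, the ligase that seals the fragments, differed from most members in sign. It had 2.26, 7.57 and 3.57 TPM with CPC, 5.73, 3.78 and 4.47 TPM with AEBDAC and 2.91, 5.18 and 2.59 TPM with MTOAC, against 2.29, 1.63 and 2.57 TPM in vehicle libraries. The AEBDAC and MTOAC libraries all lay above the vehicle libraries, MTOAC library 3 only barely, but at these low levels the log2 fold changes of 0.68, 0.84 and 0.50 did not pass the test (adjusted p = 0.417, 0.223 and 0.417).

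Genes of nucleotide supply had median log2 fold changes of -0.41 with CPC, -0.39 with AEBDAC and -0.62 with MTOAC. Tk1 (chromosome 11, 117815526 to 117826092, minus strand), the thymidine kinase of the salvage pathway, had 43.0, 41.3 and 49.6 TPM with CPC, 51.7, 36.7 and 49.3 TPM with AEBDAC and 36.6, 34.2 and 32.4 TPM with MTOAC, against 52.1, 55.1 and 66.4 TPM in vehicle libraries. The MTOAC libraries were all below every other library, and AEBDAC library 1 almost reached vehicle library 1. Tk1 fell with MTOAC (-0.73 ± 0.15, SE, adjusted p = 0.0221), with log2 fold changes of -0.36 with CPC (adjusted p = 0.332) and -0.34 with AEBDAC (adjusted p = 0.253). The MTOAC call was kept without vehicle library 1 or MTOAC library 3 and lost without any other of the libraries compared, with adjusted p between 0.0102 and 0.113 over 14 alternatives. Tk1 overlaps Afmid on the opposite strand. Rrm1 had 104 ± 9.15 TPM with CPC, 102 ± 12.1 TPM with AEBDAC and 100 ± 14.2 TPM with MTOAC, against 134 ± 31.2 TPM in vehicle libraries. Its compound libraries lay below its vehicle libraries only narrowly, with 113.9 TPM in CPC library 1 and 115.0 TPM in vehicle library 2. Vehicle library 1, at 170 TPM, raised the vehicle mean, and Rrm1 was not called without the replicate block. Rrm2, the small subunit that limits ribonucleotide reductase in S phase, had 4.27, 5.56 and 1.49 TPM with CPC, 2.80, 3.02 and 3.86 TPM with AEBDAC and 4.44, 4.58 and 0.478 TPM with MTOAC, against 25.7, 3.18 and 5.72 TPM in vehicle libraries. Its vehicle mean rested on library 1, the groups overlapped, and no comparison passed the test (adjusted p = 0.530, 0.401 and 0.251). Tyms, thymidylate synthase, had 36.6 ± 2.62, 38.3 ± 2.71 and 35.3 ± 2.94 TPM with CPC, AEBDAC and MTOAC, against 52.2 ± 16.2 TPM in vehicle libraries, and was not called. Named pseudogenes also exist for Tyms.

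The 3 chromatin members, Uhrf1, which couples maintenance methylation to replication, and the CAF-1 subunits Chaf1a and Chaf1b, had median log2 fold changes of -0.28, -0.11 and -0.30 with CPC, AEBDAC and MTOAC, and 0 were called. Uhrf1 had 20.7 ± 5.50, 23.0 ± 2.86 and 23.2 ± 5.15 TPM in that order, against 26.4 ± 12.5 TPM in vehicle libraries. Chaf1a had 13.9 ± 3.70, 16.02 ± 0.838 and 12.1 ± 1.86 TPM, against 15.2 ± 2.34 TPM in vehicle libraries. In both genes the compound libraries overlapped the vehicle libraries.

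The compounds were also set against each other, with the limit that their concentrations differ. In the 3 pairs limma without the replicate block called 0 members, and 0% of all tested genes. That fit also gave the p-values and intervals below. The pairs AEBDAC and CPC, and MTOAC and AEBDAC, met the rule for pairing, so their intervals leave the pairing out. At an unadjusted p under 0.05 the pair AEBDAC and CPC gave 1 member (Rfc3), MTOAC and CPC gave 4 (Cdt1, Tk1, Fen1 and Gins2) and MTOAC and AEBDAC gave 2 (Tk1 and Gins2). Among all tested genes 1.76%, 3.74% and 2.56% passed that level in the same order. Tk1 was lower with MTOAC than with AEBDAC by a log2 difference of -0.39 (95% interval -0.72 to -0.06). Cdt1 differed by 0.37 between MTOAC and CPC (0.04 to 0.70), and Rfc3 by 0.29 between AEBDAC and CPC (0.03 to 0.55). The median 95% interval of a member extended 0.46 log2 to each side, and was narrower for members such as Pcna and Mcm5. The lack of calls does not show that the compounds act alike.

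Other replication genes outside the 45, such as additional polymerase subunits and histone chaperones, had median log2 fold changes of -0.20, -0.17 and -0.35 with CPC, AEBDAC and MTOAC over 47 tested genes. With CPC and AEBDAC 0 were called in either direction, and at an unadjusted p under 0.05 there were 9 and 11 lower (19.1% and 23.4%, against 11.8% and 15.2% of all tested genes). With MTOAC 5 were called lower (10.6%, against 5.75% of all tested genes) and 0 higher. Asf1b, a histone chaperone of dividing cells, had 15.0, 10.9 and 13.2 TPM with CPC, 12.3, 13.3 and 19.4 TPM with AEBDAC and 10.4, 6.27 and 9.74 TPM with MTOAC, against 28.6, 18.6 and 29.8 TPM in vehicle libraries. Apart from AEBDAC library 3, the compound libraries lay below all vehicle libraries, and Asf1b fell with MTOAC (-1.44 ± 0.25, adjusted p = 0.0130). Pole2, a polymerase epsilon subunit (-0.81, adjusted p = 0.0448), Mcm9, an MCM paralogue (-0.75, adjusted p = 0.0463), Top1, which relaxes DNA ahead of the fork (-0.48, adjusted p = 0.0269), and Dck, a deoxynucleoside kinase (-0.45, adjusted p = 0.0484), also fell with MTOAC. Leaving out 1 library at a time kept the Asf1b call in 6 of 6 fits, those of Top1 and Dck in 2 and those of Pole2 and Mcm9 in 1.

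Among 23 tested further genes of G1/S control, 0 were called with CPC or AEBDAC. At an unadjusted p under 0.05, 6 were lower with CPC (26.1%, against 11.8% of all tested genes) and 1 was higher, against 1.81%. With AEBDAC 7 were lower at that level (30.4%, against 15.2%) and 3 were higher, against 3.95%. With MTOAC 2 were called lower (8.70%, against 5.75% of all tested genes) and 1 higher, against 0.791%. E2f8, an atypical E2F that represses transcription, was the one that rose, with 10.4, 13.6 and 9.70 TPM in MTOAC libraries, against 3.61, 5.90 and 5.40 TPM in vehicle libraries. Its groups did not overlap, and its log2 fold change was 1.04 ± 0.26 with MTOAC (adjusted p = 0.0394), beside 0.81 with CPC (adjusted p = 0.228) and 1.05 with AEBDAC (adjusted p = 0.0709). The MTOAC call of E2f8 was lost without any 1 of the 6 libraries compared. Cdkn2c, an inhibitor of the cyclin D kinases, fell to 36.8, 33.7 and 31.3 TPM with MTOAC, against 72.6, 53.9 and 60.9 TPM in vehicle libraries (-0.85 ± 0.16, adjusted p = 0.0160), a call lost without MTOAC library 2 (adjusted p = 0.0548). Tfdp1, the dimer partner of E2F factors, fell as well (-0.41 ± 0.11, adjusted p = 0.0481), a call kept in 1 of 6 fits that left out 1 library. Ccnd1, cyclin D1, had 215 ± 59.1 TPM with CPC, 214 ± 37.5 TPM with AEBDAC and 204 ± 52.8 TPM with MTOAC, against 247 ± 39.6 TPM in vehicle libraries, and was not called. Cdkn1a, the p21 inhibitor, had 244 ± 57.6, 265 ± 43.4 and 249 ± 46.9 TPM in that order, against 229 ± 76.6 TPM in vehicle libraries, and the groups overlapped. Myc, a growth-promoting factor, had 87.0 ± 13.6, 101 ± 20.8 and 90.2 ± 12.2 TPM, against 73.2 ± 8.64 TPM in vehicle libraries, and was not called.

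Genes of G2 and mitosis had lower medians than the 45 members. Over 20 tested genes the median log2 fold change was -0.51 with CPC, -0.65 with AEBDAC and -0.77 with MTOAC, and all 20 were negative with each compound. With CPC 0 were called in either direction, and 13 were lower at an unadjusted p under 0.05 (65%, against 11.8% of all tested genes). With AEBDAC 4 were called lower (20%, against 0.883% of all tested genes), namely Aurka, Aurkb, Kif20a and Plk1, and with MTOAC 11 were called lower (55%, against 5.75%). The AEBDAC calls of Aurka and Aurkb were kept in 1 of 6 fits that left out 1 library, and those of Kif20a and Plk1 in 0. Plk1, a mitotic kinase, had 65.8, 62.1 and 73.9 TPM with CPC, 66.3, 55.5 and 60.5 TPM with AEBDAC and 53.5, 52.7 and 40.8 TPM with MTOAC, against 83.8, 101 and 103 TPM in vehicle libraries. All compound libraries were lower, and the log2 fold change was -0.96 ± 0.14 with MTOAC (adjusted p = 0.00677). Mki67, the proliferation marker Ki-67, had 51.7, 47.0 and 46.6 TPM with CPC, 48.4, 45.04 and 41.3 TPM with AEBDAC and 35.9, 34.6 and 46.5 TPM with MTOAC, against 87.7, 68.3 and 60.9 TPM in vehicle libraries. Mki67 fell with MTOAC (-0.87 ± 0.15, adjusted p = 0.0141; 0.0542 without MTOAC library 2) and did not pass the test with CPC (adjusted p = 0.194) or AEBDAC (adjusted p = 0.0651). Top2a, the topoisomerase of dividing cells, had 188 ± 15.2, 172 ± 13.7 and 171 ± 25.9 TPM with CPC, AEBDAC and MTOAC, against 235 ± 59.4 TPM in vehicle libraries, and was not called. Whether the difference between these lists and the members exceeds the spread between lists was not tested.

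**Figure D4:**
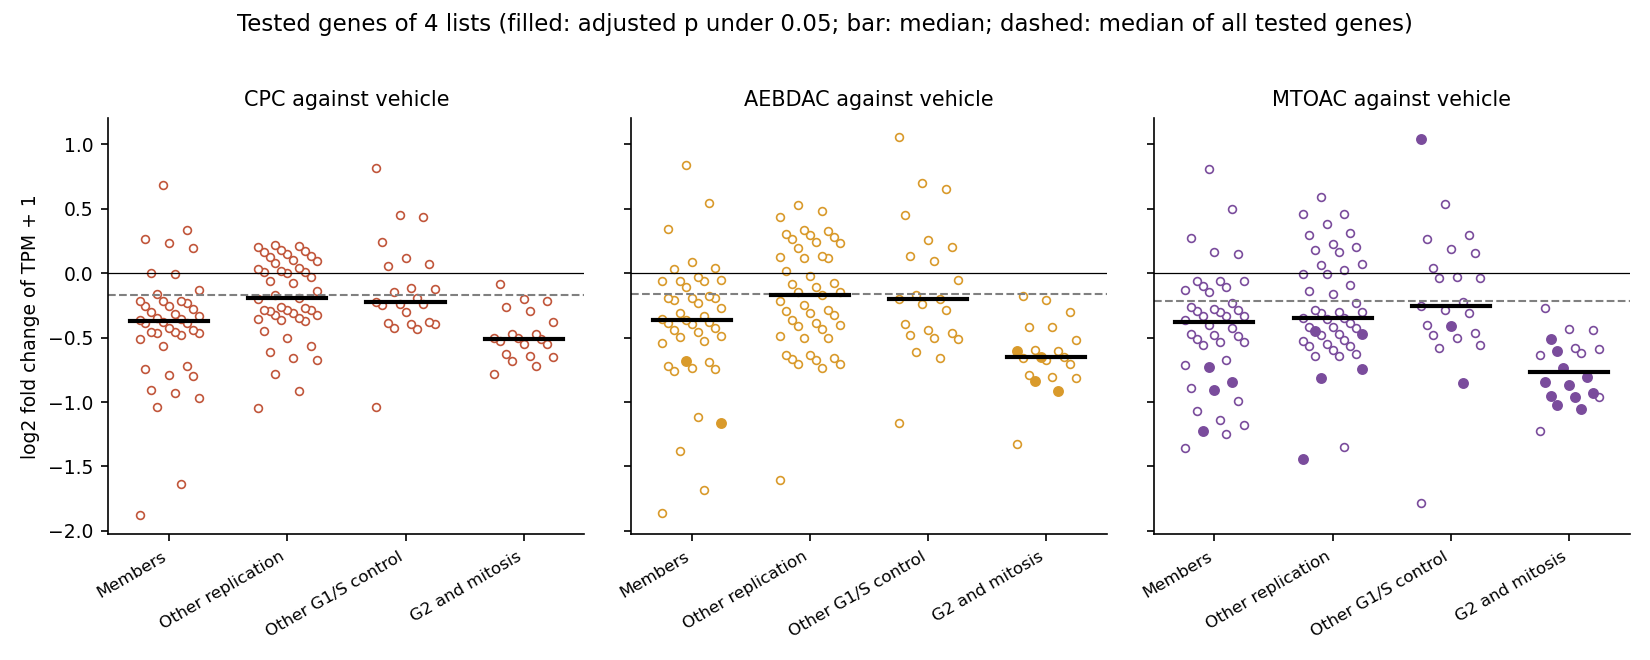
Log2 fold changes against vehicle of the tested members and of 3 further gene lists, with a bar at each list's median and a dashed line at the median of all tested genes. Filled points passed an adjusted p under 0.05; the G2 and mitosis genes lie lowest, with medians of -0.51, -0.65 and -0.77.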

How the data were processed

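Total RNA was extracted with TRIzol, its poly(A) fraction was made into libraries by a sequencing provider, and these were read as 150 bp pairs, per the labels' protocols. Salmon and the mm10 build are named, per the submitters' processing notes. Their versions and the annotation were not given in the sources used here. TPM values were deposited by the authors in 1 table per library. TPM are relative to all transcripts of a library and keep no depth, so no counting interval is given. Groups came from the treatment labels, and 0 value columns were left unused.

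Of the 35385 symbols, 34858 matched GENCODE M21 on GRCm38, which gave coordinates and overlapping genes; 15 members overlap a protein-coding gene. Promoters came from a RefSeq table (GRCm38.p6) that lists 37 of the 45 members.

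As the files hold TPM and no counts, testing used limma 3.58.1 under R 4.3.3 (trend, robust empirical Bayes) on log2(TPM + 1), over 12009 genes that reached 1 TPM in 3 or more libraries. All 12 libraries entered 1 fit of 4 group means. P-values are two-sided, adjusted by Benjamini and Hochberg over all tested genes of a comparison. With 3 libraries in each of 2 groups, the smallest p of an exact permutation test is 0.1. Tables and figures were made with Python 3.11.15, pandas 2.3.3 and matplotlib 3.10.9.

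Members and gene lists were chosen with earlier results of these data known. Per-library values are given for members called in any compound comparison or in the mean of the compounds, and for 8 set members (Mcm2, Mcm5, Cdc6, Pcna, Ccne1, Ccne2, E2f1 and Rrm2); other members are given by role, with the 2 most abundant as examples, and those named beyond that (Lig1, Cdc45, Pole, Rfc3, Mcm3, Mcm4, Mcm6, Orc2, Cdt1, Tyms and the low partners Prim2, Rpa2, Gins3 and Rfc4) were chosen after their values were seen. Of the other lists, called genes and 5 set genes are named.

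No pair of libraries held identical values. Replicate numbers were read from the titles, where nothing ties a number to a shared culture. Same-numbered libraries were taken as paired where all 3 correlations of their deviations from group means exceeded 0.1. They were 0.34, 0.31 and 0.23 for CPC and vehicle, which met the rule, as did AEBDAC and CPC and MTOAC and AEBDAC. They were 0.08, 0.25 and 0.03 for AEBDAC and vehicle, and -0.03, 0.35 and -0.19 for MTOAC and vehicle, which did not. Alternatives were a replicate block, quantile normalization, both, removal of mitochondrially encoded genes, a pseudocount of 0.1, no filter, a filter of 5 TPM, a fit of only the groups compared, and leaving out each library in turn.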

Additional observations from a re-analysis of the deposited data

How the results depend on the processing

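The number of members called depended on the processing, and each cause was not tested. With CPC (0 called), 4 were called with the replicate block and 1 with quantile normalization and the block; leaving out 1 library gave 0 to 0. With AEBDAC (2 called), quantile normalization gave 1, no filter 0 and a fit of only the groups compared 0, and leaving out 1 library gave 0 to 2. With MTOAC (4 called), quantile normalization gave 2 and a fit of only the groups compared 0, and leaving out 1 library gave 2 to 3, with Ccne1 and Fen1 called each time. For the mean of the compounds (8 called), quantile normalization gave 3, removal of mitochondrially encoded genes 5 and no filter 3, and leaving out 1 library gave 2 to 9. Between compounds every setting gave 0 members. Over all genes, quantile normalization moved the higher and lower calls from 47 and 106 to 96 and 86 with AEBDAC. With MTOAC they moved from 95 and 690 to 213 and 217, and for the mean from 133 and 787 to 295 and 303. Leaving out 1 library gave 1 to 6 called genes with CPC, 9 to 105 with AEBDAC and 152 to 584 with MTOAC. For the mean it gave 168 to 1079 called genes. Whether the members moved more than all genes was not tested.

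Where the correlations did not meet the rule for pairing, or for the mean of the compounds, the replicate block gave 4 members with AEBDAC (all lower, as were 7.05% of all tested genes), 10 with MTOAC (13.8% of genes) and 14 for the mean (14.9%). It added E2f2 and Gins4 with AEBDAC, Ccne2, Gins1, Gins4, Mcm5, Rfc3 and Rpa1 with MTOAC, and Ccne2, Gins4, Prim1, Rfc3, Rpa1 and Rrm1 for the mean. The summed astrocyte markers followed the replicate number in every group. Of the 6 libraries in each of these comparisons, 4 with AEBDAC and 2 with MTOAC correlated best with their own number. The MTOAC count is no more than random matching would give on average, so it is no hint of pairing. The AEBDAC count is at most a hint from the data and not the design.

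Signs turned for a few small, uncalled fold changes. Mcm2 was 0.055 with AEBDAC, 0.11 with MTOAC and 0.036 for the mean after quantile normalization, with or without the block. Leaving out 1 library, Mcm2 ranged from -0.14 to 0.029 with AEBDAC and from -0.13 to 0.035 with MTOAC (highest without vehicle library 1), and E2f1 from -0.66 to 0.069 with CPC (highest without CPC library 2). Cdkn1a ranged from -0.13 to 0.36 with CPC, from -0.093 to 0.40 with MTOAC and from -0.073 to 0.42 for the mean, lowest without vehicle library 3; without CPC library 1 it was -0.043 with CPC. Of 785 results on single members, 657 kept their direction and side of the threshold, 108 lost a call, 11 gained one and 9 changed sign. The 785 cover only the 8 set members and the members called against vehicle without the replicate block, not all 45. Most of the 785 concern a comparison in which the member was not called, so no call could be lost there. The share of calls lost was therefore higher than 108 of 785. With 3 libraries a group and no known depth, changes of members below 5 TPM were measured poorly.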
